A study of Bos taurus with 81 samples.

Results

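The fate of repressive chromatin was followed from the bovine morula (MO) into the lineages of the blastocyst, inner cell mass (ICM) and trophectoderm (TE). Each autosome, 1 to 29, was cut into 5 kb bins, 497594 in all, and a bin was called marked in a library where at least 50% of it lay under peaks of that library's list. A morula bin was one marked in both MO libraries of a mark. There were 26932 morula bins of H3K27me3, 19764 of H3K9me3 and 38236 of either mark. Each was classed as kept in both lineages (marked in both ICM and both TE libraries), kept in ICM only, kept in TE only, or in neither. A bin whose libraries of 1 lineage disagreed was called mixed. The comparison used 12 of the 81 libraries, 2 per mark and group, and the remaining groups and assays described the same bins.

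The embryos were produced in vitro from slaughterhouse oocytes and were cultured without inhibitor (treatment label Control). Morulae were collected at 122 h and blastocysts at 172 h after insemination. ICM was obtained by immunosurgery, in which antibody and complement kill the outer cells, and TE was cut off blastocysts with a blade under the microscope, so the lineages were isolated by different methods. Embryos were pooled, with about 1000 to 1500 cells in a library, and germinal vesicle oocytes (GV, about 500 in a library), embryos of 2, 4 and 8 cells (2C, 4C and 8C) and whole blastocysts (BL) were profiled in the same way. The labels do not say whether the replicates came from separate cultures, so p-values measure the spread between these libraries, which may be technical. The lineage labels were not checked against marker genes, because no annotation of the build of the peaks was used here.

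H3K27me3 is placed by Polycomb repressive complex 2 and keeps developmental genes silent in cells that do not use them. H3K9me3 is placed by enzymes such as SETDB1 and SUV39H1, is bound by HP1 proteins and is typical of heterochromatin and of silenced transposons. The morula precedes the first lineage decision of the embryo, in which outer cells form TE, the source of the placenta, and inner cells form ICM, the source of the fetus. CUT&Tag, the assay used, inserts sequencing adapters next to an antibody bound to the mark, and the amount of signal was then reduced by the authors to peaks.

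The lists differed in extent. H3K27me3 marked 33319 and 30297 bins in MO, 50489 and 50423 in ICM, and 54962 and 57223 in TE. H3K9me3 marked 22418 and 28889 bins in MO, 19624 and 25955 in ICM, and 31668 and 31928 in TE. ICM replicate 1 thus had the shortest H3K9me3 list, and its score floor, the 1st percentile of the peak score per 200 bp and a rough stand-in for depth, was also the lowest of the 6 at 1.55 against 2.12 to 2.48. For H3K27me3 the floor was 2.11 and 2.44 in MO and 3.82 to 4.60 in the lineages. The part of these floors in the results was not tested. Depth itself is unknown, and a smaller share of cells with a mark cannot be told apart from less of the mark per cell.

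Most morula H3K27me3 was found again in both lineages, whereas most morula H3K9me3 was not. Of the H3K27me3 morula bins, 20104 (74.6%) were kept in both lineages, against 7.06% of all autosomal bins marked in all 4 lineage libraries. Another 1280 bins (4.75%, all bins 1.16%) were kept in ICM only and 733 (2.72%, all bins 1.94%) in TE only. In neither lineage were 2298 bins marked (8.53%, all bins 85.2%), and 2517 (9.35%, all bins 4.69%) were mixed. Leaving out 1 library at a time gave 68.1% to 76.8% kept in both, and without ICM replicate 1 the TE-only share was 4.11%.

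Trimming the 6 lists to the covered length of the shortest, with the highest scores kept, lowered the share kept in both lineages to 53.0% and raised the share in neither to 20.1%. After trimming, the share of H3K27me3 kept in both was thus still above the 32.2% of H3K9me3, but by less. The lists were trimmed within each mark, to 149 Mb for H3K27me3 and 96.6 Mb for H3K9me3. Their length was therefore equal within a mark and not between the marks.

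Of the H3K9me3 morula bins, 6334 (32.0%) were kept in both lineages, against 2.11% of all bins. A further 2227 (11.3%, all bins 0.845%) were kept in ICM only and 1097 (5.55%, all bins 1.98%) in TE only. In neither lineage were 5988 marked (30.3%, all bins 90.2%), and 4118 (20.8%, all bins 4.84%) were mixed. Without 1 library at a time the share kept in both was 26.5% to 36.4%. The TE-only share rose to 9.91% without ICM replicate 2, while the ICM-only share was 9.60% to 16.7%, the highest without ICM replicate 1. In both marks the ICM-only bins outnumbered the TE-only bins, although the TE lists were the longer ones.

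**Figure D1:**
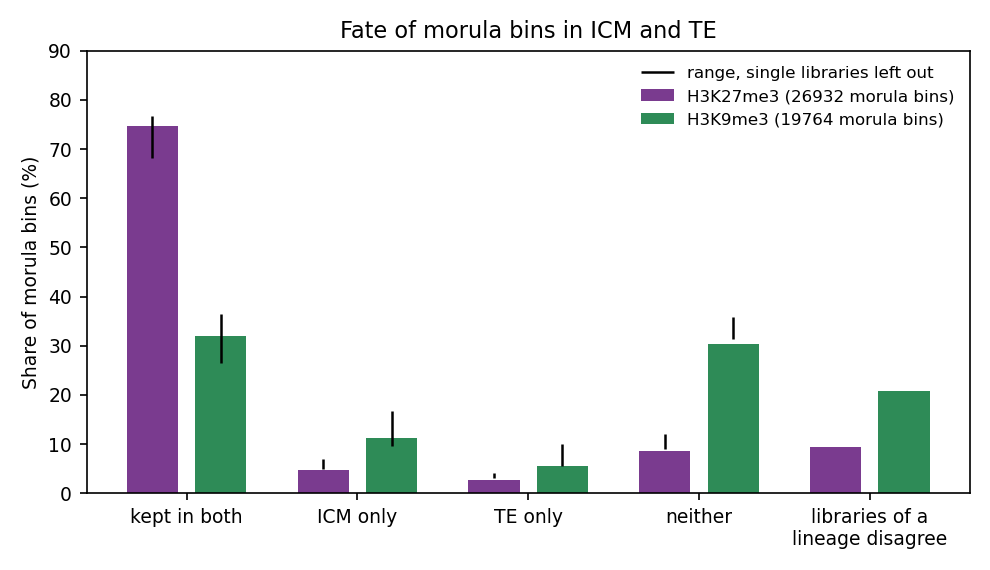
Share of morula bins of each fate, in percent of the 26932 H3K27me3 and 19764 H3K9me3 morula bins; bars are the values with all libraries and the thin lines span the values with 1 library left out. H3K27me3 was kept in both lineages in 74.6% and H3K9me3 in 32.0% of bins. The thin lines can lie above a bar, in part because a lineage left with 1 library has no mixed bins.

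Bins in neither lineage mostly held no called peak at all. Of the 2298 H3K27me3 bins in neither lineage, 77.5% had no covered base in any of the 4 lineage libraries, and of the 5988 H3K9me3 bins 87.3% had none. These were thus rarely bins just below the 50% cover that defines a mark, but a peak list does not show signal under the caller's cutoff, and an absent peak is not an absent mark. The whole blastocyst libraries, which took no part in the classes, marked 6.09% and 3.05% of the H3K27me3 bins and 1.59% and 3.89% of the H3K9me3 bins in neither lineage.

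The replicate libraries of the morula give a yardstick for these shares. Among bins marked in MO replicate 1 for H3K27me3, MO replicate 2 marked 80.8%, the ICM libraries 80.0% and 79.7%, and the TE libraries 76.6% and 78.4%. Chosen in MO replicate 2, the values were 88.9% in the other MO library, 82.5% and 81.9% in ICM and 79.1% and 80.7% in TE. The lineage lists of H3K27me3 are longer than the MO lists, however, and a longer list recovers more bins. At equal length the other MO library marked 83.8% (chosen in replicate 1) and 84.6% (chosen in replicate 2), the ICM libraries 62.6% to 65.4% and the TE libraries 59.3% to 60.7%. For H3K9me3 the other MO library marked 88.2% (chosen in replicate 1) and 68.4% (chosen in replicate 2), whereas the lineage libraries marked 43.4% to 53.8%. At equal length these were 76.0% and 76.1% in the other MO library, 49.1% to 52.9% in ICM and 37.1% to 42.6% in TE. No lineage library reached the level of the morula replicate at equal length in either mark, and the gap was wider for H3K9me3 in each lineage. The trimmed H3K9me3 lists were shorter than the trimmed H3K27me3 lists, so this contrast of the marks was not made at one length.

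Each lineage library was then read on the morula bins, which had been chosen without it. For H3K27me3 the ICM libraries marked 85.3% and 84.8% of them (mean 85.1% ± 0.386, SD, n = 2) and the TE libraries 81.7% and 83.2% (82.4% ± 1.09, n = 2). For H3K9me3 the ICM libraries marked 50.8% and 57.4% (54.1% ± 4.69, n = 2) and the TE libraries 47.8% and 47.0% (47.4% ± 0.583, n = 2). In both marks ICM lay above TE without overlap. The difference was 2.63 percentage points for H3K27me3 and 6.70 for H3K9me3. With 2 libraries against 2, the exact two-sided permutation p of each was 0.333, the smallest possible.

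Summed over the marks the difference was 9.32 points, with an exact permutation p of 0.0556, again the smallest possible, and 0.12 after Benjamini-Hochberg adjustment over the 9 tests made. The retention of morula bins was thus not shown to differ between ICM and TE. The H3K9me3 difference was 3.06 points without MO replicate 1, 3.38 without ICM replicate 2, 2.70 with at least 90% cover and 13.1 with lists of equal length. The H3K27me3 difference was 0.72 points where any covered base marked a bin, 5.38 with at least 90% cover and 4.41 with lists of equal length. Whole blastocysts marked 86.2% and 86.0% of the H3K27me3 and 46.9% and 54.2% of the H3K9me3 morula bins.

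Shared bases gave the same order. The Jaccard index, the bases shared by 2 lists over the bases in either, was on average 0.450 between MO and ICM and 0.394 between MO and TE for H3K27me3, and 0.340 and 0.239 for H3K9me3. Replicates shared more, with 0.722 (MO), 0.767 (ICM) and 0.779 (TE) for H3K27me3 and 0.630, 0.528 and 0.655 for H3K9me3. ICM and TE shared 0.587 in H3K27me3 but 0.346 in H3K9me3. List length caps the index, and the MO lists of H3K27me3 were the shorter ones, so the lists were also compared at equal length. The index was then 0.464 (MO and ICM), 0.423 (MO and TE) and 0.560 (ICM and TE) for H3K27me3, and 0.336, 0.244 and 0.362 for H3K9me3. In both settings the H3K27me3 lists of the lineages shared more with each other than with the morula, while for H3K9me3 ICM shared about as much with TE as with MO.

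Within-group minus between-group similarity over MO, ICM and TE was 0.279 for H3K27me3 and 0.296 for H3K9me3, each with an exact one-sided permutation p of 0.0667, the smallest possible, and an adjusted p of 0.12. Over both marks the sum was 0.575 with an exact permutation p of 0.00444, the smallest possible, and an adjusted p of 0.04. By this test the libraries of the 3 groups differed in where the marks lay, taken over both marks, though neither mark passed alone. The summed test did not pass when labels were exchanged only within a replicate number. The replicates may also be technical. Similarity to MO was higher in ICM than in TE by 0.0565 for H3K27me3 and 0.101 for H3K9me3, with an exact two-sided p of 0.333 each. The sum of 0.157 had an exact p of 0.0556 and an adjusted p of 0.12, so this order was not shown by the test.

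Whether H3K9me3 was kept went with H3K27me3 on the same bin. Of the H3K9me3 morula bins, 8460 (42.8%) were also marked by H3K27me3 in both MO libraries and 9339 (47.3%) in no MO library. Where H3K27me3 was present, 61.6% of the H3K9me3 bins were kept in both lineages and 9.56% in neither. Where it was absent, 7.65% were kept in both and 48.2% in neither. With the alternatives tried, the share kept in both was 56.3% to 68.3% with H3K27me3 and 5.82% to 9.63% without it. This split was added after the fates had been seen, and no test was made of it.

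The 4 lineage libraries showed the contrast separately. With H3K27me3 on the bin, H3K9me3 was marked in 72.0% and 77.0% of bins in ICM and in 81.9% and 81.0% in TE. Without it the ICM libraries marked 32.9% and 41.1% and the TE libraries 18.3% and 17.6%. TE thus lay above ICM on the bins with both marks and below it on the bins with H3K9me3 alone, in every library. The difference in H3K9me3 retention between the lineages therefore had opposite signs in these 2 sets of bins. Of the bins with H3K9me3 alone in the morula, 17.8% were kept in ICM only and 3.92% in TE only.

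Bins with both marks lie in longer stretches and nearer to chromosome ends, so the split was repeated within these. In morula runs of 1 bin, H3K9me3 was kept in both lineages in 41.9% of bins with H3K27me3 and 3.42% without, and in runs of 10 bins or more in 85.3% and 37.4%. Outside the last 2 Mb of the chromosomes the shares were 57.1% and 7.09%. The order held in each of the 4 classes of run length and at either position. For the fate of H3K27me3 the split by H3K9me3 had no single direction. Over all its morula bins, 70.7% of bins with H3K9me3 and 75.9% of the 15392 bins without it were kept in both lineages. In neither lineage were 15.7% with and 5.35% without. In runs of 1 bin, 21.7% of the H3K27me3 bins with H3K9me3 were kept in both against 68.3% of those without. In runs of 10 bins or more the order was the reverse, with 91.7% against 82.0%, as it was in the last 2 Mb of the chromosomes, with 84.8% against 71.6%.

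Each bin was next given a state from both marks, H3K27me3 alone, H3K9me3 alone, both, or none, where both libraries of each mark agreed. In TE the leading change of the 15392 morula bins with H3K27me3 alone was the addition of H3K9me3. In ICM 52.3% of these bins had H3K27me3 alone, 15.7% had both marks and 8.60% had none, with 23.1% unsettled because replicates disagreed. In TE 25.9% had H3K27me3 alone, 42.9% both marks, 11.5% none, and 18.9% were unsettled. Over all bins, both marks were present in 1.95% in ICM and 4.12% in TE.

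Read per library, H3K9me3 covered 20.2% and 30.4% of these bins in ICM and 52.4% and 52.0% in TE, against 1.40%, 2.30%, 3.93% and 4.04% of all bins with H3K9me3 in no MO library. All 4 were above that level, and the TE values lay above the ICM values. The size depended on the lists: the share with both marks in ICM was 29.2% without H3K9me3 ICM replicate 1, and in TE it was 25.6% with lists of equal length, against 15.3% in ICM. Of the 2415 bins that had both marks in ICM, 77.3% also had both in TE, and these 1866 bins were 28.2% of the 6608 in TE. Another 2752 bins had both marks in TE and H3K27me3 alone in ICM, and 155 the reverse.

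Bins with H3K9me3 alone in the morula mostly lost it, more often in TE. Of the 9339, 51.7% had no mark in ICM (all bins 86.2%) and 76.7% in TE (all bins 85.8%), and 26.4% and 8.74% still had H3K9me3 alone. H3K27me3 was marked on 5.01% and 5.35% of them in the ICM libraries and on 7.30% and 7.81% in the TE libraries. Over all 460910 bins with H3K27me3 in no MO library the shares were 4.73% and 4.75% in ICM and 5.96% and 6.31% in TE, so the gain of H3K27me3 on these bins was close to the general level and slightly above it in each library. Among the marked states, the 8460 bins with both marks were the most often unchanged in TE, where 68.9% still had both. In ICM 56.7% still had both, against 52.3% unchanged among the bins with H3K27me3 alone. From both marks, 9.23% went to H3K27me3 alone in ICM (all bins 5.63%) and 3.13% in TE (all bins 4.45%). To H3K9me3 alone went 8.81% in ICM (all bins 1.14%) and 6.42% in TE (all bins 0.736%). The shares that went to H3K27me3 alone were 16.1% in ICM without H3K9me3 ICM replicate 2 and 5.13% in TE without H3K9me3 TE replicate 1.

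**Figure D2:**
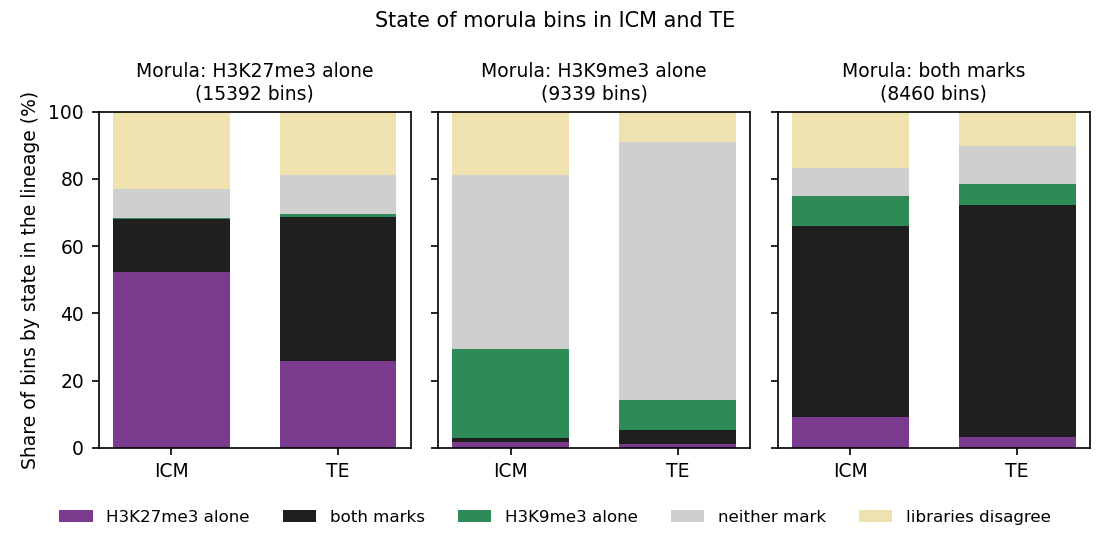
Fate of morula bins by state, in percent of the bins of that state (H3K27me3 alone, 15392; H3K9me3 alone, 9339; both marks, 8460), in ICM and in TE; colours are the state in the lineage, and the top segment holds the unsettled bins, whose libraries disagree. Both marks were found on 15.7% of the bins with H3K27me3 alone in ICM and on 42.9% in TE.

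Exchange of one mark for the other was rare. From H3K27me3 alone to H3K9me3 alone went 34 bins in ICM (0.221%, all bins with H3K9me3 alone 1.14%) and 132 in TE (0.858%, all bins 0.736%). From H3K9me3 alone to H3K27me3 alone went 159 bins in ICM (1.70%, all bins with H3K27me3 alone 5.63%) and 94 in TE (1.01%, all bins 4.45%). The shares of all bins include bins that had the second mark already in the morula, so the 443635 bins with neither mark there are the closer reference. Of these, 0.226% came to H3K9me3 alone in ICM and 0.291% in TE, and 3.23% and 3.41% to H3K27me3 alone. Against that reference the switch to H3K9me3 was at the same level in ICM and higher in TE, and the switch to H3K27me3 was lower in both lineages. A switch also needs the loss of the first mark, which the reference bins did not have, so these shares are not alike. Counted whether or not the first mark was lost, gain of the second mark was above the general level in each library, as given above. No test was made of these shares. Between 75.5% and 94.7% of the bins of a switch stood alone, with no neighbour of the same kind.

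The counts of switches moved with nearly every choice. With lists of equal length they were 211 and 446 bins for H3K27me3 to H3K9me3 in ICM and TE, and 35 and 31 for the reverse. Without H3K9me3 ICM replicate 1 the first count was 89, without H3K27me3 TE replicate 2 the TE count was 245, and without H3K9me3 MO replicate 1 the reverse switch numbered 399 and 268. Only 6 bins went from H3K27me3 to H3K9me3 in both lineages and 25 the other way. Bins with H3K27me3 alone in ICM and H3K9me3 alone in TE numbered 131 among all bins, and 18 had the reverse.

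The 159 bins that went to H3K27me3 in ICM often carried H3K27me3 in TE as well (79.9% and 83.0%) and in BL (86.2% and 88.7%), while H3K9me3 was found on 54.1% and 61.0% of them in TE. The 132 bins that went to H3K9me3 in TE carried H3K27me3 in 58.3% and 56.1% and H3K9me3 in 38.6% and 53.0% in the ICM libraries. The longest run of H3K27me3 to H3K9me3 in TE was chr20:67015001-67035000 (ARS-UCD1.2). H3K27me3 covered 100.0% and 85.0% of it in MO, 74.0% and 89.0% in ICM and none in TE. H3K9me3 covered 12% and 0% in MO, 24.0% and 38.0% in ICM and 100.0% and 88.0% in TE.

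Each lineage also had marks that the morula lacked, and TE had more of them. Of the 460910 bins with H3K27me3 in no MO library, 16874 (84.4 Mb, 3.66%) were new in ICM and 22902 (115 Mb, 4.97%) in TE, and 10959 (2.38%) were new in both. New in ICM and in no TE library were 3869 (0.839%), and new in TE and in no ICM library were 8400 (1.82%). New bins made up 38.1% of the bins marked in both ICM libraries and 46.2% of those in TE. With lists of equal length the counts fell to 6560 and 7791, and with at least 90% cover the TE count was 13298.

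New H3K9me3 was more unequal when all libraries were used. Of 466051 bins with H3K9me3 in no MO library, 4332 (21.7 Mb, 0.93%) were new in ICM and 13606 (68.0 Mb, 2.92%) in TE, with 2585 (0.555%) new in both. New in ICM only were 1270 (0.273%) and in TE only 7792 (1.67%). New bins were 27.1% of ICM and 53.1% of TE bins. The ICM count was 10729 when ICM replicate 1 was left out and 6509 when replicate 2 was, so it depended on which ICM libraries were used. With 10729 in ICM, called from a single library, the lineages were no more unequal than in H3K27me3. With lists of equal length the counts were 4887 in ICM and 7782 in TE, and with at least 90% cover the TE count was 7746.

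New H3K9me3 in TE lay where H3K27me3 lay. Of the 7792 bins new in TE only, the MO libraries marked 47.3% and 43.2% for H3K27me3, the ICM libraries 73.4% and 74.1% and the TE libraries 82.8% and 84.1%, against 6.09% to 11.5% of all bins in these libraries. Of the 2585 bins new in both lineages, the MO libraries marked 82.2% and 79.3% and the lineage libraries 89.8% to 92.3%. The 1270 bins new in ICM only were lower, with H3K27me3 on 27.4% and 24.8% in MO, 36.6% and 36.9% in ICM and 19.4% and 20.6% in TE. Most H3K9me3 new in TE only or in both lineages therefore lay on bins that also carried H3K27me3 in TE, while most of that new in ICM only did not carry it in ICM. Whether signal passed between the 2 marks in the assay was not tested.

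The fates differed in their earlier history, which the classes did not use. H3K27me3 morula bins kept in both lineages were marked in 71.7% and 67.8% in GV oocytes, in 16.9% and 20.5% at 2C and in 24.7% and 25.1% at 8C. Those in neither lineage were marked less in GV (32.2% and 31.2%) and slightly more at 8C (30.7% and 30.2%). All bins were marked in 9.78% and 9.80% in GV and 5.67% and 5.78% at 8C. The bins that both lineages kept were thus those most often marked in the oocyte, although most lacked the mark in between. ICM-only bins had 45.2% and 43.8% in GV and 12% and 13.0% at 8C, and TE-only bins had 55.0% and 53.5% and then 33.4% and 35.5%. At 8C the H3K9me3 libraries marked nearly the same share of the H3K27me3 bins kept in both, 25.6% and 23.3%. In GV they marked 4.39% and 4.68%.

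In H3K9me3 the history parted ICM-only from TE-only bins. The 1097 TE-only bins were marked in 35.5% and 35.4% in GV, 52.6% and 53.2% at 2C, 68.6% and 69.2% at 4C and 70.1% and 69.3% at 8C. The 2227 ICM-only bins were marked in 9.52% and 8.62% in GV, 4.71% and 4.85% at 2C, and 7.18% and 5.61% at 8C, near the 6.95% and 6.88% of all bins at 8C. Bins kept in both lineages had 58.9% and 55.5% at 8C, and bins in neither had 12.6% and 11.7%. H3K9me3 that the morula shared with ICM only was therefore mostly absent at cleavage, whereas that shared with TE only was mostly present then. No library of one class overlapped the other at any of these stages, and no test was made over the classes. At 8C the H3K27me3 libraries marked nearly the same shares of these H3K9me3 classes. Their means were 67.5% (TE only), 7.03% (ICM only), 57.2% (both) and 11.6% (neither). The H3K9me3 means were 69.7%, 6.40%, 57.2% and 12.1%, so the contrast at 8C was not particular to H3K9me3. Nor was it at the earlier stages. The H3K27me3 means of TE-only and ICM-only bins were 53.8% and 13.3% in GV, 55.1% and 9.99% at 2C and 65.9% and 8.85% at 4C. Those of H3K9me3 were 35.4% and 9.07%, 52.9% and 4.78%, and 68.9% and 6.58%.

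The TE-only H3K9me3 bins also carried H3K27me3 at every stage: in 67.8% and 67.3% at 8C, 63.1% and 58.9% in MO, 60.0% and 60.9% in ICM and 76.4% and 77.9% in TE. The ICM-only bins had H3K27me3 in 7.23% and 6.83% at 8C, 20.7% and 17.7% in MO, 5.79% and 5.43% in ICM and 2.92% and 3.19% in TE. In the whole blastocyst, H3K9me3 was marked on 36.1% and 50.8% of the ICM-only and 61.2% and 80.3% of the TE-only bins. The corresponding H3K27me3 classes had H3K27me3 in BL on 53.5% and 49.5% (ICM only) and 84.2% and 83.6% (TE only). In both marks BL held more of the TE-only than of the ICM-only bins.

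**Figure D3:**
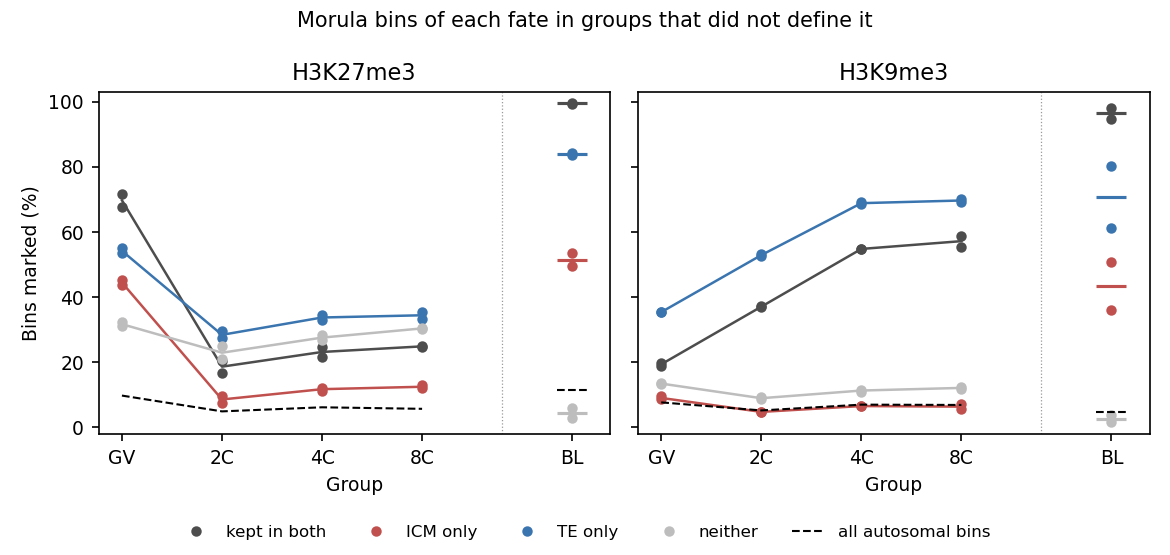
Percent of morula bins of each fate that were marked by the same mark in groups that took no part in the classes: GV, 2C, 4C, 8C and, set apart, BL. Points are libraries (2 per group), lines and short bars are means, and the dashed line is all autosomal bins. H3K9me3 TE-only bins stood at 70.1% and 69.3% at 8C and ICM-only bins at 7.18% and 5.61%.

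Acetylation and open chromatin were read on the bins of lineage-specific loss from libraries that took no part in the classes. H3K27ac is placed on the same lysine as H3K27me3, is typical of active enhancers and promoters, and one lysine cannot carry both. The H3K27ac reading is therefore not independent of the H3K27me3 classes. A bin was counted where it touched any H3K27ac, H3K4me3 or ATAC peak. On the 1280 H3K27me3 bins kept in ICM only, H3K27ac touched 12.7% and 10.3% in ICM and 35.0% and 35.9% in TE. On the 733 kept in TE only it touched 27.1% and 25.4% in ICM and 5.18% and 4.64% in TE. The lineage that lost H3K27me3 was in both classes the one with more H3K27ac, and the libraries of the lineages did not overlap.

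Over all bins H3K27ac touched 12.4% and 11.4% in ICM and 8.72% and 9.14% in TE, so TE had less of it in general and the excess in TE on ICM-only bins ran against the genome level. In the morula, H3K27ac touched 22.0% and 15.4% of the ICM-only and 15.6% and 11.9% of the TE-only bins, near the 17.9% and 15.8% of all bins. Bins kept in both lineages had 3.92% and 2.75% in ICM and 2.42% and 2.78% in TE. Bins in neither lineage had 23.7% and 20.5% in ICM and 21.7% and 22.1% in TE, above all bins in all 4 libraries. With 2 libraries a lineage no exact test can fall under 0.333, and none was made.

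Open chromatin followed the same order with smaller differences. ATAC, which had 3 libraries a lineage, touched 40.2%, 38.3% and 39.8% of the H3K27me3 ICM-only bins in ICM and 50.3%, 52.0% and 53.4% in TE. Of the TE-only bins it touched 44.5%, 42.7% and 45.0% in ICM and 30.2%, 32.3% and 31.5% in TE, and of all bins 17.7% to 18.7% in ICM and 16.4% to 17.8% in TE. H3K4me3, the mark of active promoters, touched 10.0% and 10.9% of the ICM-only bins in ICM and 22.2% and 18.6% in TE. On the TE-only bins it did not separate the lineages in this way, with 13.1% and 11.9% in ICM and 12% and 11.2% in TE.

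**Figure D4:**
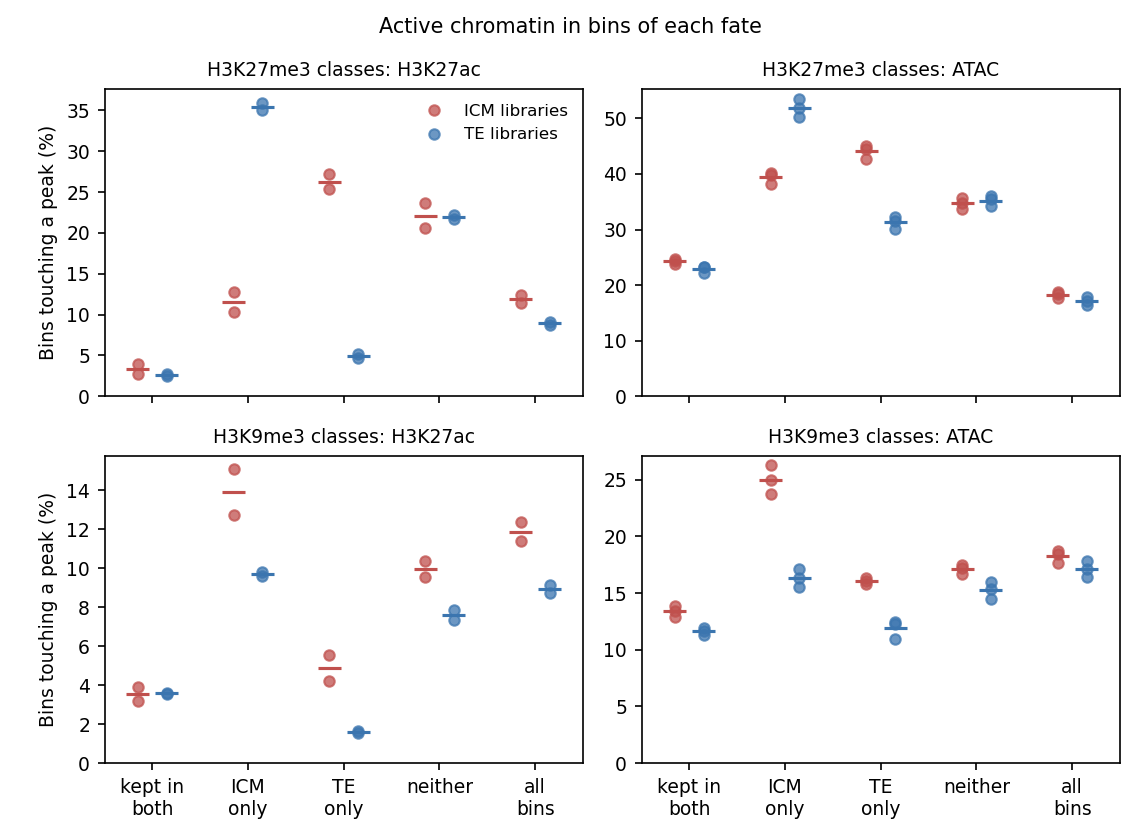
Percent of bins of each H3K27me3 and H3K9me3 class touched by H3K27ac and ATAC peaks in ICM and TE; points are libraries (2 for H3K27ac, 3 for ATAC in each lineage), short lines are means, and all autosomal bins are shown for scale. On H3K27me3 bins kept in ICM only, H3K27ac touched 35.0% and 35.9% in TE against 12.7% and 10.3% in ICM, and on those kept in TE only the order was the reverse.

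The H3K9me3 classes did not turn the order of the lineages, since ICM had more H3K27ac than TE in both lineage-specific classes as it had over all bins. The H3K9me3 ICM-only bins, which TE had lost, were touched by H3K27ac in 15.1% and 12.8% in ICM and in 9.61% and 9.83% in TE, a ratio near that of all bins. ATAC gave 26.3%, 23.7% and 25.0% in ICM and 15.5%, 16.3% and 17.2% in TE, a wider ratio than over all bins. In the morula, where these bins carried H3K9me3, H3K27ac touched 27.9% and 27.2% of them, above the 17.9% and 15.8% of all bins. The TE-only bins, which ICM had lost, had H3K27ac in 5.56% and 4.19% in ICM and 1.55% and 1.64% in TE, and ATAC in 16.0%, 15.8% and 16.3% in ICM and 10.9%, 12.5% and 12.3% in TE. In that class the lineage without H3K9me3 was thus the more acetylated one, by a wider ratio than over all bins but at levels below them. Bins that had newly gained H3K9me3 in ICM only were the most acetylated of the H3K9me3 classes before the gain, with 41.4% and 38.2% in MO, and ATAC touched 44.1%, 42.0% and 43.9% of them in ICM.

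Bins with H3K27me3 new in only 1 lineage had less H3K27ac in that lineage than in the other. Bins new in TE only were touched by H3K27ac in 20.4% and 18.1% in MO, 13.5% and 11.4% in ICM and 1.85% and 2.3% in TE. Bins new in ICM only had 21.0% and 19.3% in MO, 4.63% and 3.57% in ICM and 10.9% and 11.6% in TE. Bins new in both lineages had 9.11% and 8.29% in MO, 2.44% and 1.58% in ICM and 0.721% and 0.849% in TE. In both lineage-specific classes the H3K27ac share was lower in the lineage with new H3K27me3 than in the other, without overlap of libraries. All bins had 17.9% and 15.8% in MO, 12.4% and 11.4% in ICM and 8.72% and 9.14% in TE. Before the gain, in the morula, both lineage-specific classes thus lay above all bins. In GV, H3K27me3 had been on 32.3% and 29.5% of the bins new in both lineages, so a part of what was new against the morula had been marked in the oocyte.

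Long stretches were kept more often than single bins in both marks. Of morula bins in a run of 1, 2 to 4, 5 to 9 and 10 or more bins, 56.6%, 70.8%, 80.9% and 87.8% were kept in both lineages for H3K27me3. For H3K9me3 the shares were 12.9%, 27.8%, 54.5% and 79.9%. In runs of 10 or more bins the share of H3K9me3 kept thus came near that of H3K27me3, and the marks differed more in each class of shorter runs. Of the 1909 H3K9me3 bins in such long runs, 1671 also had H3K27me3 in both MO libraries, and 85.3% of these were kept. The 139 with H3K27me3 in no MO library were kept in 37.4%, against 82.0% for H3K27me3 bins without H3K9me3. In neither lineage were 47.3% of the H3K9me3 bins in runs of 1 and 1.2% of those in runs of 10 or more, against 20.6% and 2.23% for H3K27me3.

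The ends of the chromosomes held a large part of the H3K9me3 that was kept. The last 2 Mb of each autosome make up 2.33% of all bins but held 17.0% of the H3K27me3 and 12.6% of the H3K9me3 morula bins. They held 27.2% of the H3K9me3 bins kept in both lineages and 18.9% of the TE-only bins, against 1.66% of the ICM-only bins and 2.05% of those in neither. For H3K27me3 the range was narrower, from 10.4% (ICM only) to 17.9% (both). New H3K27me3 was not found there in excess, with 1.34% to 1.59% of the new classes. Of the new H3K9me3 bins, 14.7% of those new in both lineages lay there, 11.4% of those new in TE only and 3.23% of those new in ICM only.

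Retention varied between chromosomes. For H3K27me3 the share kept in both lineages was 59.8% on chromosome 10 (615 bins) to 85.3% on chromosome 26 (797 bins), with a median of 75.5%. For H3K9me3 it was 17.4% on chromosome 28 (258 bins) to 45.1% on chromosome 26 (426 bins), with a median of 32.6%. Chromosome 10 also had the highest ICM-only shares, 10.7% for H3K27me3 and 19.2% for H3K9me3 (593 bins). TE-only H3K9me3 was 0.410% on chromosome 9 (732 bins) and 14.8% on chromosome 29 (617 bins), the widest spread of the classes in relative terms.

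The longest runs show the classes on the genome (coordinates of ARS-UCD1.2). The longest H3K27me3 run kept in both lineages was chr12:85875001-86120000 (245 kb), with 93.6% to 98.9% of its bases covered in the 6 libraries. H3K9me3 covered 62.3% and 71.7% of it in MO and 94.6% to 99.4% in the lineage libraries. The longest H3K9me3 run kept in both was chr11:105250001-105400000 (150 kb), covered in 96.1% to 99.1% by H3K9me3 and in 85.6% to 96.1% by H3K27me3. The classes of loss and gain came in shorter runs, of at most 40 kb for loss and 85 kb for gain, and 54.1% of the ICM-only and 65.1% of the TE-only H3K27me3 bins stood alone.

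On chromosome 12, chr12:85080001-85120000 was the longest H3K27me3 run kept in TE only (40 kb). H3K27me3 covered it wholly (100%) in both MO and both TE libraries and had no covered base in either ICM library. H3K9me3 covered 47.5% and 64.5% in MO, none in ICM and 97.0% and 100% in TE, so both marks were absent from it in ICM. H3K27ac covered 20.2% and 17.8% of it in ICM and none in TE. The next, chr16:49435001-49470000, was covered by H3K27me3 in 89.1% and 89.7% in MO, none in ICM and 95.4% and 100% in TE.

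The longest H3K27me3 run kept in ICM only, chr2:132845001-132885000 (40 kb), was covered in 92.0% and 87.0% in MO, 96.0% and 96.0% in ICM and not at all in TE, with 77.5% and 52.0% in BL. H3K9me3 followed with 49.0% and 39.0% in MO, 64.5% and 45.0% in ICM and none in TE, and H3K27ac covered none in ICM and 10.0% and 7.75% in TE. At chr26:51005001-51045000, the longest run in neither lineage, H3K27me3 covered 84.5% and 81.0% in MO and no base in the 4 lineage libraries. H3K27ac covered 2.75% and 1.62% of its bases in MO, 35.5% and 35.5% in ICM and 34.0% and 38.8% in TE. The next run in neither, chr11:105045001-105080000, differed from it: H3K9me3 covered 100% in both MO libraries and 82.9% to 100% in the lineages, so H3K9me3 was present where H3K27me3 was absent.

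For H3K9me3, chr2:131395001-131435000 (40 kb, TE only) was covered in 89.5% and 100% in MO, none in ICM and 97.0% and 92.5% in TE. H3K27me3 covered 34.5% and 12% of it in MO, 1.00% and 23.0% in ICM and 89.0% and 93.5% in TE. The longest ICM-only run, chr4:101935001-101965000 (30 kb), was covered by H3K9me3 in 91.3% and 100% in MO and 88.7% and 87.3% in ICM, and H3K27me3 covered 38.0% and 52.7% of it in MO and none in either lineage. Among gains, chr19:17100001-17160000 (60 kb) had no H3K9me3 in MO, none and 0.333% in ICM and 96.7% and 94.3% in TE. It carried H3K27me3 in 95.7% and 87.3% in ICM and 97.0% and 100% in TE, so TE held both marks and ICM held H3K27me3 alone. The longest H3K27me3 runs new in ICM only and in TE only were chr14:24795001-24865000 (70 kb) and chr11:12960001-13025000 (65 kb), each with no covered base in MO and in the other lineage.

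**Figure D5:**
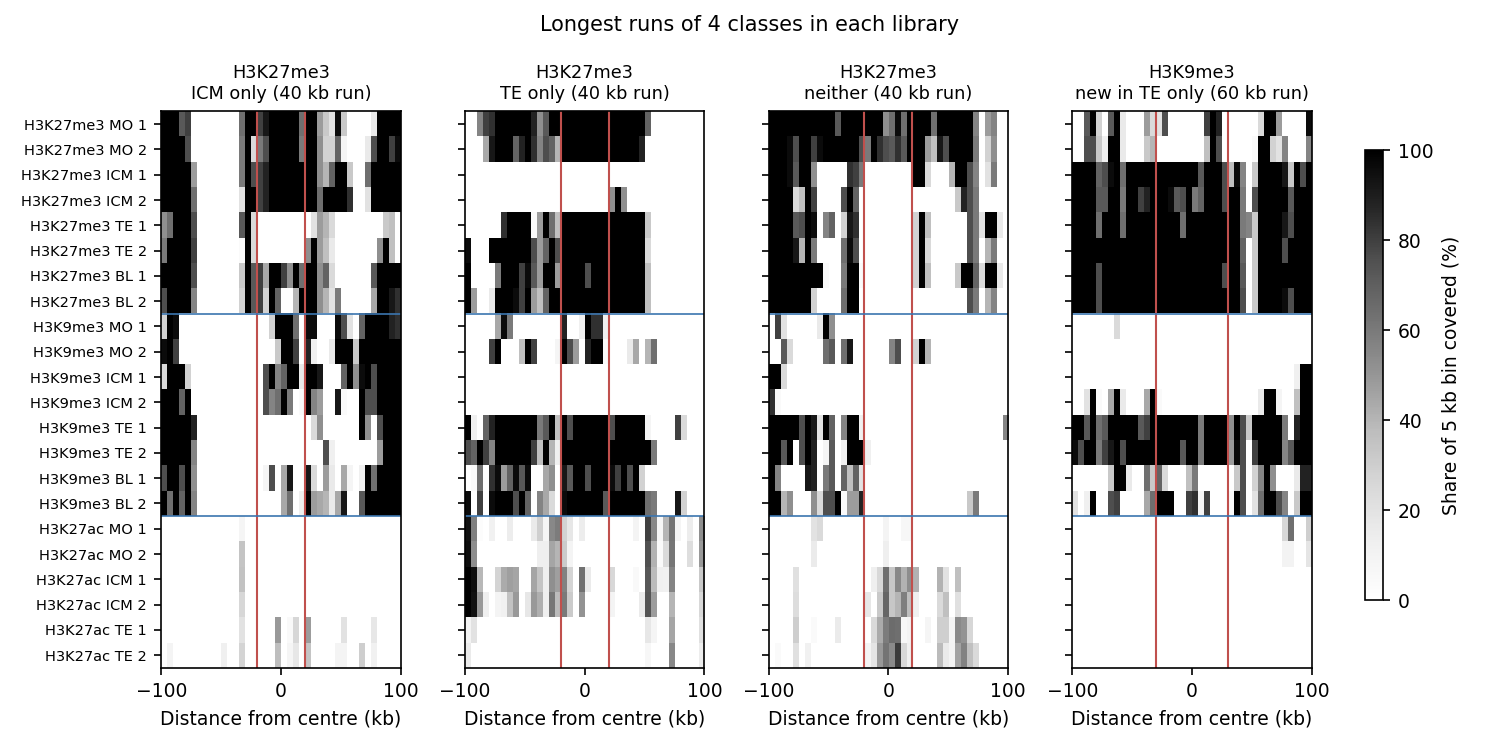
Share of each 5 kb bin covered by peaks, in percent (grey scale), within 100 kb of the centre of 4 runs, 1 library per row; red lines bound the run. From left to right are the longest H3K27me3 runs kept in ICM only, in TE only and in neither lineage, and the longest H3K9me3 run new in TE only. In the TE-only panel both repressive marks are absent from ICM inside the run, where H3K27ac covered 20.2% and 17.8%.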

How the data were processed

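CUT&Tag peak lists of H3K27me3 and H3K9me3 from MO, ICM and TE were compared, with 50 lists used in all and 31 not used. The authors deposited 1 list per library, and per the submitters' processing notes reads were handled on the ARS-UCD1.2 build with SICER, BWA 0.7.9a, SAMtools 1.9, Picard 2.26.10, cutadapt 1.8.3 and Trim Galore 0.4.0, in no stated order. The lists are named for epic2, so the caller is not settled, and the peak cutoff and any control library were not given in the sources used here. Each deposited peak has a whole-number score of unstated meaning, which was used only to rank peaks within a list and for the score floor. Depth is unknown.

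Bins, classes, Jaccard indices and exact permutation tests were computed in pandas 2.3.3 and NumPy 2.4.6 under Python 3.11.15, with Benjamini-Hochberg adjustment over 9 tests, and the code was tested on simulated data. Groups and replicate numbers came from the sample titles. Alternatives were any covered base, at least 90% cover, 10 kb bins, the lowest 25% of scores left out, lists trimmed to one covered length within each mark, each library left out, and a replicate block. Named runs were the longest of each class, up to 3 per class. The classes, states and measures were chosen with earlier results of these data known. No genes were placed and no sequences are shown, since the gene table at hand is of another assembly.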

Additional observations from a re-analysis of the deposited data

Results flagged for a closer look

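Chromosome X was not part of the comparison, which used the autosomes. Its morula bins followed the same classes: of 919 H3K27me3 bins, 64.4% were kept in both lineages, 8.71% in ICM only, 1.31% in TE only and 15.3% in neither. Of 1621 H3K9me3 bins, 27.7% were kept in both lineages, 18.1% in ICM only, 1.79% in TE only and 30.2% in neither. They are listed because they lie outside the main measurement, there are no control samples for them, and the difference from the autosomes was not tested.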

How the results depend on the processing

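No tested difference changed direction, and none changed its side of the threshold after adjustment except under a replicate block, given last. Values moved as follows, and unless the setting itself lowers a count (10 kb bins, at least 90% cover) the cause was not tested. With any covered base, the H3K27me3 share was 3.25% in TE only and 10.3% in neither, and for H3K9me3 27.9% in both and 33.5% in neither. With at least 90% cover the H3K27me3 shares were 70.9% in both, 5.55% in ICM only, 2.00% in TE only and 6.96% in neither, with 13298 bins new in TE. For H3K9me3 they were 35.0% in both, 9.04% in ICM only and 24.6% in neither, with 7746 new in TE. With 10 kb bins, H3K27me3 had 76.4% in both, 6.93% in neither and 8822 and 11325 bins new in ICM and TE, and H3K9me3 36.3%, 26.7%, 2407 and 6910. Without the lowest 25% of scores, H3K27me3 in neither was 8.05%. With lists of equal length, H3K27me3 had 53.0% in both, 7.09% in ICM only, 3.73% in TE only, 20.1% in neither and 6560 and 7791 new bins, and H3K9me3 16.0% in ICM only and 7782 new in TE.

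Switches from H3K27me3 to H3K9me3 numbered 52 in ICM with any covered base, 70 in TE with 10 kb bins, and 211 and 446 with lists of equal length. The reverse numbered 330 and 314 in ICM and TE with any covered base, 70 and 33 with at least 90% cover, 70 and 41 with 10 kb bins, and 35 and 31 with lists of equal length. With 1 library left out the ranges were 68.1% to 76.8% (both), 4.88% to 6.88% (ICM only), 3.10% to 4.11% (TE only) and 9.01% to 12.1% (neither) for H3K27me3, and 26.5% to 36.4%, 9.60% to 16.7%, 5.56% to 9.91% and 31.4% to 35.8% for H3K9me3. H3K9me3 bins new in ICM were 4332 to 10729. Switches to H3K9me3 were 34 to 89 in ICM and 132 to 245 in TE, and to H3K27me3 159 to 399 and 94 to 268.

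Deviations of same-numbered libraries correlated at -0.0154 to 0.0167, so the lists showed no pairing by replicate number. Whether same-numbered libraries shared a culture or batch is not known from this or from the labels. With a replicate block the ICM minus TE differences in retention were the same, 2.63, 6.70 and 9.32 points, as were those in similarity, 0.0565, 0.101 and 0.157. The exact permutation p became 0.5 for a single mark and 0.125 for both, the smallest a block allows. The location test over both marks, 0.575, had an exact permutation p of 0.0278 within the block, the smallest possible, and an adjusted p of 0.25, so it did not pass there, as fewer arrangements are allowed. This block was chosen after seeing the data, as were the Jaccard indices and single-library choices at equal list length. Peak lists without depth set the limit of all these values.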
